A study of Mus musculus with 32 samples.

Results

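The cytochrome P450 genes of families 1 to 3 were examined as every probe of the array whose annotated symbol read Cyp, then 1, 2 or 3, then a letter. This gave 62 probes for 45 genes, out of 25697 probes and 16593 named genes, and each gene was read from its probe of highest mean intensity across the series. The genes comprised 3 of family 1, 36 of family 2 and 6 of family 3, and the largest subfamilies were Cyp2c with 10 genes and Cyp2d with 8. Testis, spleen, liver and lung came from male NIH Swiss mice aged 7 weeks, taken 24 h after 1 intravenous injection of CBL0137 (30, 60 or 90 mg/kg) or of vehicle, 5% dextrose. CBL0137 is a DNA-binding small molecule that acts on the histone chaperone FACT. The 4 organs and 4 treatments give 16 groups with 2 arrays each, and 32 arrays altogether. Whether paired arrays represent different animals is not stated in the labels, and the p-values therefore reflect array-to-array spread, which may be technical.

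Cytochromes P450 of these families are heme enzymes of the endoplasmic reticulum that oxidise drugs, toxicants, steroids and fatty acids with electrons from P450 reductase. Most are made in hepatocytes, several of them chiefly around the central vein, and a few are better known from lung, steroid-making organs or stroma. Their genes are induced by foreign compounds through the Ah receptor (the Cyp1 genes) and the nuclear receptors CAR and PXR (Cyp2b10, Cyp2c29, Cyp3a11), and the basal level of some is set by growth hormone.

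The promoters of the Cyp2b genes are shown because 3 of these genes were among the 4 members with the lowest log2 difference between 90 mg/kg and vehicle in liver, and Cyp2b10 is the classical CAR target. They are RefSeq windows of build GRCm38.p6, from 250 bases before to 50 bases after the gene start, and 39 of the 45 genes had such an entry. The windows are chr7:26061245-26061544 on the plus strand, chr7:26173159-26173458 on the plus strand, chr7:26686381-26686680 on the minus strand and chr7:25897408-25897707 on the plus strand. Each is written 5′ to 3′ in the direction of the gene. Capitals mark matches to AGGTCA, a nuclear receptor half-site, or to GCGTG, the core bound by the Ah receptor, on either strand, so that CACGC is the second motif read from the other strand.
Cyp2b13: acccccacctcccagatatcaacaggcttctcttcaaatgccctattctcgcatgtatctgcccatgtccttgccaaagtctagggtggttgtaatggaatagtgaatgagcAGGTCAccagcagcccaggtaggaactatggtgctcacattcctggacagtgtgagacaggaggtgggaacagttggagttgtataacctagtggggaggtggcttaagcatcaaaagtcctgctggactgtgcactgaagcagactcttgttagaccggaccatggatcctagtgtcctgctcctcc
Cyp2b9: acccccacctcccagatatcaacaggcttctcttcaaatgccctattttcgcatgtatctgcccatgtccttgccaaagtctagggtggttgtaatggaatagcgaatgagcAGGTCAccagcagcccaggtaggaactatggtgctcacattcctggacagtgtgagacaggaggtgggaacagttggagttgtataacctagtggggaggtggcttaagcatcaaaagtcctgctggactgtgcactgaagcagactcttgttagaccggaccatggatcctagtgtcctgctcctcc
Cyp2b23: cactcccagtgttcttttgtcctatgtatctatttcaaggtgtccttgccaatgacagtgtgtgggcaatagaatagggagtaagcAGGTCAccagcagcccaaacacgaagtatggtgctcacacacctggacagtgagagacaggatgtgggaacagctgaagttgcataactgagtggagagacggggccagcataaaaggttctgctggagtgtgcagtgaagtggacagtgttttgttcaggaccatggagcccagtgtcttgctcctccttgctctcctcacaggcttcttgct
Cyp2b10: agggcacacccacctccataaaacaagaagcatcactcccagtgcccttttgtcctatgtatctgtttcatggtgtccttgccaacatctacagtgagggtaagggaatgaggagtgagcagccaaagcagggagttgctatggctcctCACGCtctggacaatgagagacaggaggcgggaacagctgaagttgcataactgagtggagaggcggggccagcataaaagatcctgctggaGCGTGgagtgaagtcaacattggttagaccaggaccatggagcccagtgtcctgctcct
The Cyp2b13 and Cyp2b9 windows matched at 298 of 300 bases, or 99.3%, and differed by C48T and T104C, counted from the 5′ end with the Cyp2b13 base first. In pairwise alignments the other pairs matched at 74.0% to 76.3% of the 300 bases. AGGTCA was found once each in Cyp2b13, Cyp2b9 and Cyp2b23 and not in the Cyp2b10 window, which held 2 matches to GCGTG. Over 27025 mouse promoters of this length, 16% held AGGTCA and 32.5% held GCGTG, against 14 and 6 of the 39 member promoters. These matches describe the letters of the windows only. Near-identical genes such as Cyp2b13 and Cyp2b9 may also share signal on an array, and the probe sequences were not used here.

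In vehicle-treated mice most of the detected members were highest in liver, while Cyp2f2, Cyp2b10 and Cyp2s1 were highest in lung, Cyp1b1 in spleen and Cyp2c55 in testis. Intensities are background-subtracted and normalized, can fall below 0, and are compared for 1 gene across arrays, never between genes. A probe counted as above background past a threshold of 8.048 or 8.291, depending on the array. In liver 36 of the 45 genes were above background in at least 2 of 8 arrays and were tested, in lung 30, in testis 13 and in spleen 12. The 8 genes tested in no organ were Cyp2b19, Cyp2c38, Cyp2j6, Cyp2j11, Cyp2j13, Cyp3a16, Cyp3a41a and Cyp3a44. In bulk organs, fewer cells of a type and less RNA per cell cannot be told apart.

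**Figure D1:**
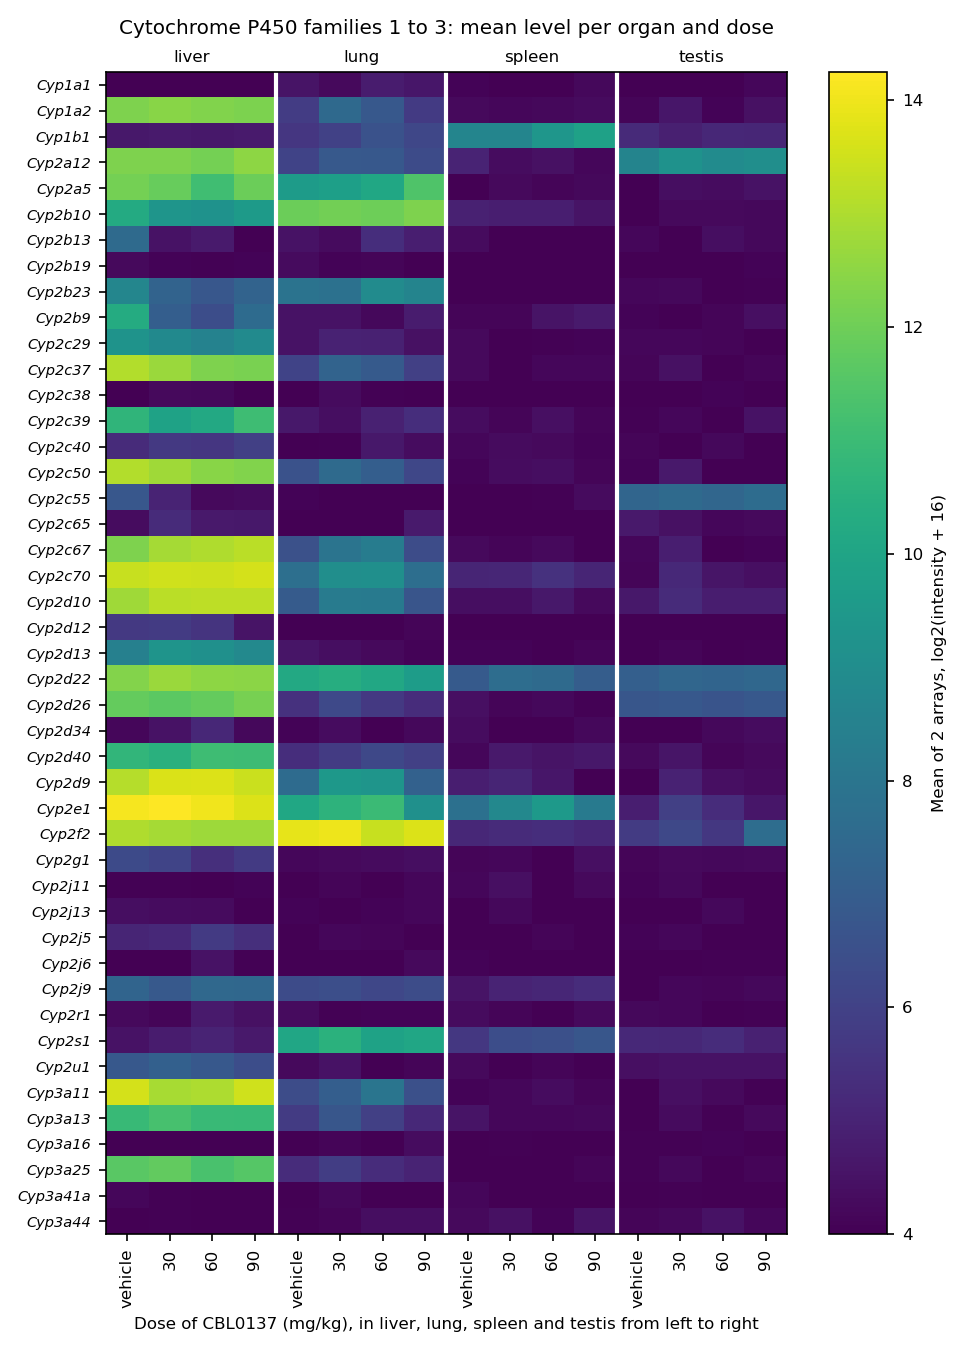
Mean level of the 45 genes (rows) in the 16 groups of organ and dose (columns, doses in mg/kg), as log2(intensity + 16), mean of 2 arrays; colours are to be read along a row, not between rows. Most rows are bright in the 4 liver columns, Cyp2f2, Cyp2b10 and Cyp2s1 are brightest in lung, and Cyp1b1 in spleen.

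Cyp2e1, which oxidises ethanol and other small molecules, read 17561.8 and 17846.4 in the vehicle liver arrays, 719.2 and 1637.0 in lung, 101.4 and 395.0 in spleen, and 8.8 and 18.1 in testis. Cyp3a11, the main steroid and drug hydroxylase under PXR, read 12997.0 and 11553.6 in liver, 14.6 and 207.0 in lung, and did not exceed 2.8 in a vehicle array of spleen or testis. Both were high in the 2 liver arrays without overlap with another organ. Cyp1a2, the constitutive hepatic caffeine oxidase, read 4925.8 and 5020.5 in liver and at most 86.9 in a vehicle array of another organ. Its relative Cyp1a1, the Ah receptor's most inducible target, was below background in all 8 liver arrays, vehicle and treated, and reached 13.0 at most, in lung.

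The lung genes formed a second pattern. Cyp2f2, the club cell enzyme that activates naphthalene, read 15367.8 and 14952.6 in vehicle lung, 8584.0 and 8108.9 in liver, 34.1 and 8.3 in spleen, and 49.5 and 31.4 in testis. Cyp2b10 read 3755.5 and 4170.3 in lung against 1049.4 and 1412.7 in liver. Cyp2s1, an enzyme of epithelia outside the liver, read 1124.0 and 975.7 in lung, 48.4 and 24.3 in spleen, and 14.0 and 0.7 in liver. For all 3 genes both lung arrays lay above every vehicle array of the other organs. Against the mean of the other 3 organs, lung was higher for Cyp2f2 by 5.90 ± 0.27 (log2 ± SE, n = 2 arrays an organ; adjusted p = 1.05e-06 in limma), for Cyp2b10 by 5.56 ± 0.18 (adjusted p = 2.99e-07) and for Cyp2s1 by 4.94 ± 0.28 (adjusted p = 3.37e-06).

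Cyp1b1, an oestrogen and aryl hydrocarbon hydroxylase found outside the liver, was highest in spleen, at 346.1 and 444.8 in the vehicle arrays. It read 46.1 and 23.4 in lung, 20.0 and 22.2 in testis, and 9.3 and 9.5 in liver. Spleen exceeded the mean of the other organs by 3.50 ± 0.20 (log2 ± SE; adjusted p = 4.38e-06 in limma). Cyp2c55 was the gene higher in testis, at 154.0 and 143.5, against 60.2 and 139.5 in liver, whose range lay below it, and 2.1 or less in every vehicle array of lung and spleen. Cyp2a12, a steroid hydroxylase of liver, was also above background in testis, at 381.4 and 383.4, but far below liver, at 4951.4 and 4940.5.

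Of 32 members tested across the vehicle arrays, 30 were higher and 2 lower in liver than in the mean of the other organs (limma, adjusted p under 0.05), against 29.7% higher and 41.6% lower of all 11807 genes. Lung had 7 higher and 15 lower members, with 29.9% and 32.3% of all genes. Spleen had 1 higher and 29 lower, with 28% and 30.2%, and testis had 1 higher and 28 lower, with 32.3% and 44.4%. A member could enter these tests through detection in liver alone, so the counts describe where the tested members lie. The 2 members lower in liver were Cyp1b1 and Cyp2s1.

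After CBL0137, the Cyp2b genes of the liver had lower readings than vehicle, Cyp2c37 and Cyp2c50 lower and Cyp2c67 higher ones, and Cyp1a2, Cyp2a12, Cyp2c70, Cyp2d22 and Cyp3a11 had log2 differences between -0.09 and 0.21 at 90 mg/kg. No member passed an adjusted p of 0.05 in limma at any dose, where 0% of 11494 genes did. At an unadjusted p under 0.05 there were 7 of 36 members at 30 mg/kg (4.85% of all genes), 10 at 60 mg/kg (6.99%) and 7 at 90 mg/kg (11.1%). The median log2 difference at 90 mg/kg was 0.02 over the members and -0.01 over all genes. By dose trend, 0 members passed (0.0087% of all genes) and 7 had an unadjusted p under 0.05 (12.1%).

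Cyp2b13, which with Cyp2b9 is known as a female-predominant liver gene in mice, read 118.5 and 244.9 in the male vehicle livers, 13.2 and 1.7 at 30 mg/kg, 13.6 and 7.9 at 60 mg/kg, and -1.3 and 0.6 at 90 mg/kg. Every treated array lay below both vehicle arrays, and both arrays at 90 mg/kg were not above background. Its difference at 90 mg/kg was -3.52 ± 0.36 on the log2(intensity + 16) scale (adjusted p = 0.0506 in limma), and no gene had a smaller adjusted p in that comparison. With the background taken as a floor, it was at least 7.77-fold lower. With an offset of 50 in place of 16 the adjusted p was 0.00721, with the spread taken from all 32 arrays 3.15e-06, with a floor of 16 0.0842, without the detection filter 0.191, with cyclic loess 0.0502 and with every probe by itself 0.0546. With any single liver array left out it ranged from 0.0367 to 0.347.

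Cyp2b9 read 1023.7 and 1520.9 in vehicle liver, 533.0 and 17.2 at 30 mg/kg, 54.2 and 86.9 at 60 mg/kg, and 255.6 and 122.6 at 90 mg/kg. All 6 treated arrays were below the lower vehicle array, but the 2 arrays at 30 mg/kg were far apart. Its difference at 90 mg/kg was -2.70 ± 1.08 (log2 ± SE; adjusted p = 0.417 in limma). Cyp2b23 read 346.6 and 466.5, then 275.3 and 63.1, 106.7 and 84.2, and 112.8 and 167.4 at the rising doses, also without overlap with vehicle. At 90 mg/kg it differed by -1.44 ± 0.54 (adjusted p = 0.376 in limma).

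Cyp2b10 read 1049.4 and 1412.7 in vehicle liver, 1186.0 and 332.3 at 30 mg/kg, 712.1 and 469.2 at 60 mg/kg, and 529.3 and 1046.6 at 90 mg/kg. The first array at 30 mg/kg lay inside the vehicle range and the other 5 treated arrays below it. The difference at 90 mg/kg was -0.70 ± 0.57 (log2 ± SE; adjusted p = 0.698 in limma), and a second Cyp2b10 probe gave -0.89. All 4 tested Cyp2b genes thus had both arrays at 90 mg/kg below both vehicle arrays, as did 20.8% of all genes, with a median log2 difference of -2.07. At 30 mg/kg all 4 of these genes were lower in replicate 2 than in replicate 1.

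**Figure D2:**
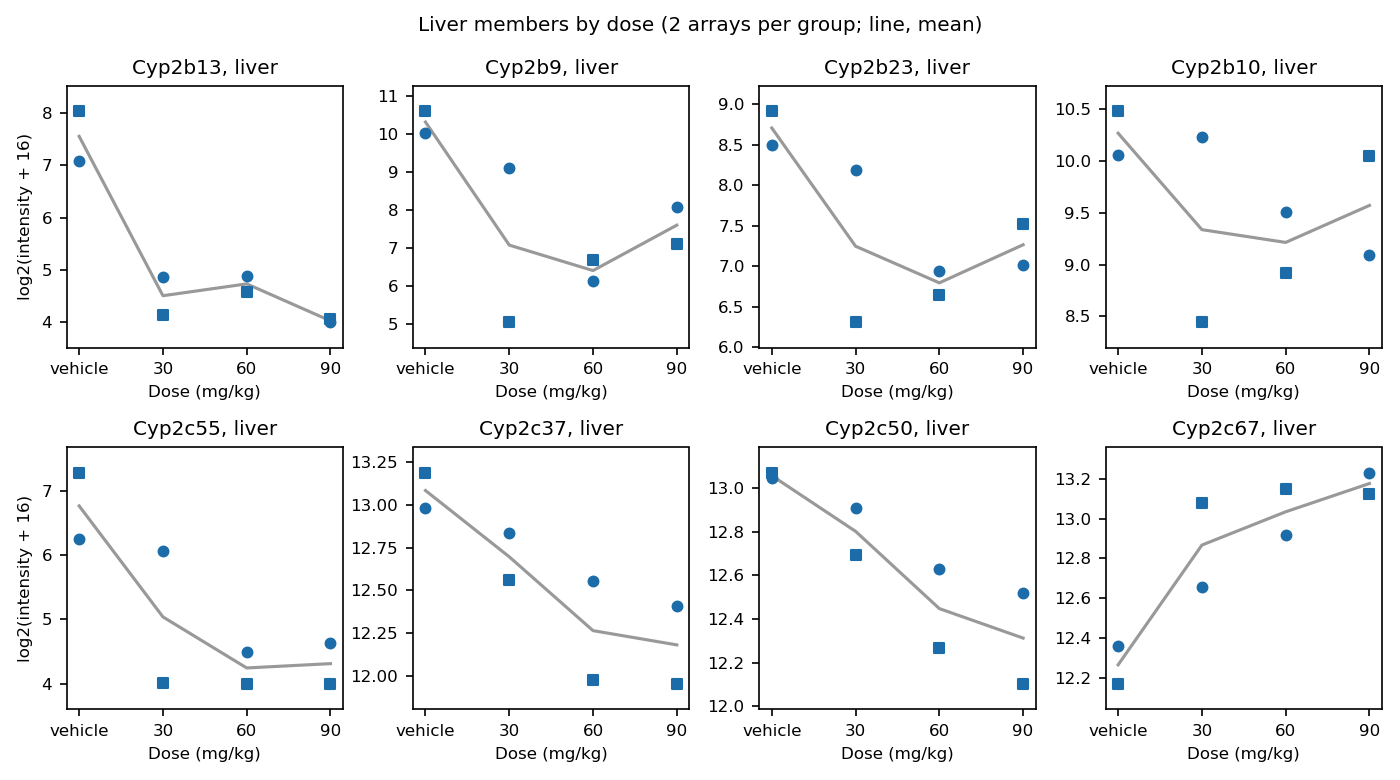
Liver levels of 8 genes by dose (x axis, mg/kg), as log2(intensity + 16) on axes that start near each gene's lowest value; circles are replicate 1, squares replicate 2, and the line joins the means of 2 arrays. Cyp2b13 starts at 118.5 and 244.9 with vehicle and ends at -1.3 and 0.6 (drawn at the floor of 0), Cyp2b9 and Cyp2b23 are lower at every dose, and Cyp2c67 is higher at every dose.

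The Cyp2c genes of the liver went both ways. Cyp2c37, which oxidises arachidonic acid, read 8061.8 and 9297.8 in vehicle, 7276.2 and 6024.8 at 30 mg/kg, 6006.9 and 4012.8 at 60 mg/kg, and 5422.7 and 3958.5 at 90 mg/kg. Cyp2c50, its close relative, read 8432.7 and 8584.0, then 7678.4 and 6610.1, 6326.9 and 4907.6, and 5864.6 and 4385.1. For both genes every treated array lay below both vehicle arrays. At 90 mg/kg Cyp2c37 differed by -0.90 ± 0.28 (log2 ± SE; adjusted p = 0.297 in limma), and its other 2 probes gave -0.90 and -1.44. Cyp2c50 differed by -0.74 ± 0.24 (adjusted p = 0.313), and its second probe gave -0.24.

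Cyp2c67 read 5242.9 and 4595.1 in vehicle, 6435.4 and 8638.1 at 30 mg/kg, 7722.9 and 9076.5 at 60 mg/kg, and 9589.9 and 8905.5 at 90 mg/kg, so that all treated arrays lay above both vehicle arrays. Its difference at 90 mg/kg was 0.91 ± 0.23 (log2 ± SE; adjusted p = 0.225 in limma), and a second probe gave 0.86. Cyp2c55, which is induced through CAR and PXR, was dim, at 60.2 and 139.5 in vehicle, 51.2 and 0.1 at 30 mg/kg, 6.5 and -4.9 at 60 mg/kg, and 8.7 and -5.4 at 90 mg/kg. It differed by -2.45 ± 0.64 at 90 mg/kg (adjusted p = 0.250 in limma). Over the 9 tested Cyp2c genes 5 were higher and 4 lower at 90 mg/kg, with a median log2 difference of 0.19.

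**Figure D3:**
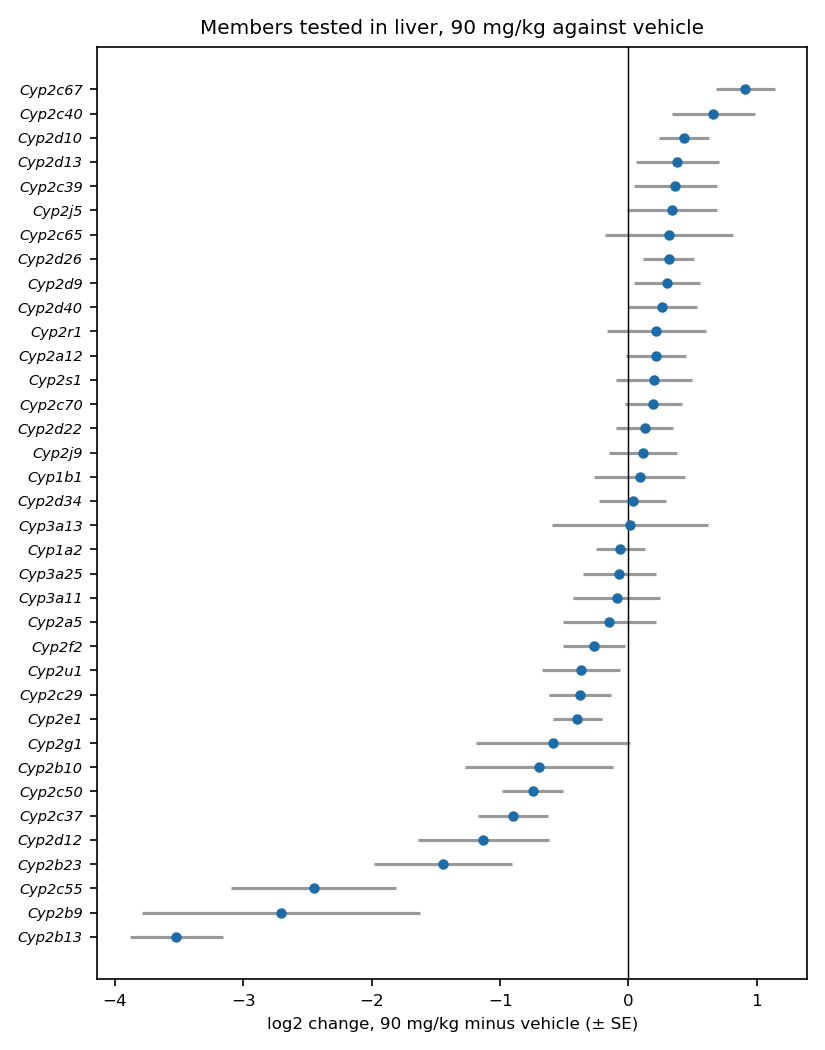
Log2 difference between 90 mg/kg and vehicle in liver (x axis) with its standard error (bars) for the 36 members tested (y axis, 2 arrays a group). Cyp2b13, Cyp2b9, Cyp2c55 and Cyp2b23 lie lowest, between -3.52 and -1.44, and Cyp2c67 highest at 0.91; none passed an adjusted p of 0.05.

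Cyp2d10 read 6940.1 and 7276.2 in vehicle liver and between 8945.2 and 10307.4 in the 6 treated arrays, with a difference of 0.43 ± 0.19 at 90 mg/kg (log2 ± SE; adjusted p = 0.457 in limma). Cyp2d9, a male-predominant steroid hydroxylase, read 7633.4 and 10217.1 in vehicle and 9297.8 and 12716.9 at 90 mg/kg, and the ranges overlapped. Of the 8 tested Cyp2d genes 7 were higher and 1 lower at 90 mg/kg, with a median of 0.28. Only 2 lay above vehicle without overlap and 1 below it (20.7% and 20.8% of all genes). Cyp2d34, among the 7, was not above background in any liver array of vehicle or of 90 mg/kg. Cyp2e1 read 13667.2 and 13196.9 at 90 mg/kg, below both vehicle arrays, but 19722.2 and 19213.9 at 30 mg/kg, above them, and its difference at 90 mg/kg was -0.40 ± 0.19 (adjusted p = 0.488 in limma). Cyp2e1 thus lay on both sides of vehicle.

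Other members differed in direction between doses or stood apart at 90 mg/kg only. Cyp2c39 read 1620.0 and 1687.1 in vehicle liver, 1105.7 and 825.6 at 30 mg/kg, 1628.5 and 827.5 at 60 mg/kg, and 2140.4 and 2131.3 at 90 mg/kg, so that it lay below vehicle at 30 mg/kg and above it at 90 mg/kg. Cyp2d26 read 3510.4 and 3736.9 in vehicle, 3493.9 and 2991.5 at 30 mg/kg, 3436.5 and 3745.9 at 60 mg/kg, and 4606.9 and 4394.2 at 90 mg/kg. This probe also lay below vehicle at 30 mg/kg and above it at 90 mg/kg, a difference of 0.31 ± 0.20 (log2 ± SE; adjusted p = 0.616 in limma). The other Cyp2d26 probes gave -0.316 and -0.275 at 30 mg/kg and -0.224 and -0.064 at 90 mg/kg. They did not share the change of direction. The dim Cyp2d12 read 21.8 and 54.7 in vehicle and 12.7 and 3.4 at 90 mg/kg, while its arrays at 30 and 60 mg/kg overlapped vehicle. Over all tested liver members 6 lay above and 10 below vehicle at 90 mg/kg without overlap (20.7% and 20.8% of all genes).

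Cyp1a2 read 5037.1 and 4483.7 at 90 mg/kg, a difference of -0.07 ± 0.19 (log2 ± SE; adjusted p = 0.920 in limma), and Cyp3a11 read 14034.5 and 9407.1, a difference of -0.09 ± 0.34 (adjusted p = 0.941). Both overlapped their vehicle arrays. Cyp2a5, the coumarin hydroxylase, read 3937.8 and 4811.7 in vehicle, 2611.2 and 1820.3 at 60 mg/kg, and 5441.0 and 2829.8 at 90 mg/kg. Cyp2f2, Cyp2u1, a fatty acid hydroxylase, and Cyp3a13 overlapped vehicle at 90 mg/kg, and Cyp2r1, the vitamin D 25-hydroxylase, was above background in 2 of 8 liver arrays, at 20.0 and 14.5.

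With all 6 treated arrays on 1 side of both vehicle arrays, 7 of the 36 liver members were lower (5.27% of all genes) and 2 higher (5.23%). The lower ones were Cyp2b9, Cyp2b13, Cyp2b23, Cyp2c29, Cyp2c37, Cyp2c50 and Cyp2c55, and the higher ones Cyp2c67 and Cyp2d10. Cyp2c29, a CAR-induced gene, read 567.8 and 646.9 in vehicle and 463.4 and 463.6 at 90 mg/kg. Its log2 differences were -0.432, -0.739 and -0.376 at 30, 60 and 90 mg/kg. A second Cyp2c29 probe gave 0.336, -0.003 and -0.009, and so did not share the lower readings. All these genes share the same 2 vehicle arrays.

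Genes that serve or regulate the P450 enzymes were also without calls in liver. Alas1, the first enzyme of heme synthesis and a CAR and PXR target, read 11869.1 and 10307.4 in vehicle, 9076.5 and 7804.6 at 30 mg/kg, 6770.8 and 8016.6 at 60 mg/kg, and 3615.5 and 4629.4 at 90 mg/kg, with no overlap at any dose. It differed by -1.43 ± 0.23 (log2 ± SE; adjusted p = 0.131 in limma). Of 7 tested genes of heme synthesis 6 were lower and 1 higher at 90 mg/kg (median -0.16). Of 10 tested CAR and PXR targets outside the family 3 were lower and 7 higher (median 0.58), among them Ugt2b34, a glucuronosyltransferase, at 1.13 ± 0.31, and Gstm3, a glutathione transferase, at 1.09 ± 0.41. The receptor CAR itself (Nr1i3) differed by -0.42 ± 0.26 and PXR (Nr1i2) by -0.14 ± 0.20, and Cyb5a, an electron donor of P450 enzymes, by 0.01 ± 0.23.

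The 11 hepatocyte markers were above background in all 8 liver arrays, and their summed intensity was 144915.0 and 148181.9 in vehicle and 123071.9 and 142547.9 at 90 mg/kg. Of 12 acute phase genes 8 were higher and 4 lower at 90 mg/kg (median 0.34, none called), with Lbp at 1.39 ± 0.25 (log2 ± SE). Among 8 pericentral markers 5 were lower and 3 higher (median -0.07, none called). Oat, which breaks down ornithine, was at -1.10 ± 0.20, Glul, glutamine synthetase, at -0.34 ± 0.40, and Aldh1a1, a retinaldehyde dehydrogenase, at 0.73 ± 0.19. Their part in the P450 values was not tested. Among 12 tested genes of P450 family 4, which hydroxylate fatty acids, 6 were higher and 6 lower at 90 mg/kg (median -0.06, none called).

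In lung the members split by array more plainly than by dose. Of 30 tested members, 13 had vehicle replicate 1 and 90 mg/kg replicate 2 as their 2 lowest arrays, as did all 10 tested hepatocyte markers and 3.79% of all 11293 genes. These arrays were singled out after their values were seen, as the 2 lung arrays lowest in the hepatocyte markers. The count of markers was therefore largely set by that choice. Cyp3a11 read 14.6 and 207.0 in vehicle, 163.2 and 83.9 at 30 mg/kg, 111.7 and 475.0 at 60 mg/kg, and 401.8 and 3.4 at 90 mg/kg. Cyp2c70, which makes muricholic acids in mice, read 49.7 and 689.4 in vehicle and 618.4 and 51.0 at 90 mg/kg, with between 343.8 and 811.9 at the other doses. The other 11 were Cyp1a2, Cyp2a12, Cyp2c29, Cyp2c37, Cyp2c50, Cyp2c67, Cyp2d9, Cyp2d10, Cyp2d26, Cyp2e1 and Cyp3a25.

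Beside these values, Ttr, the hepatocyte transthyretin gene, read 662.3 and 256.7 in those 2 arrays and between 3108.8 and 6384.4 in the other 6. Summed over the 11 markers, of which 8 to 10 were above background, the intensity was 3172.9 and 859.4 in the 2 arrays and 15533.0 to 28901.9 in the rest. The median marker stood at 0.646% and 0.277% of its vehicle liver level in the 2 arrays and at 4.58% to 9.68% in the others. In vehicle lung the 13 members stood at 0.859% to 6.65% of vehicle liver. Members without the array pattern stood in that range too, such as Cyp2d40 at 1.44% and Cyp3a13 at 2.04%. Others lay outside it, such as Cyp2b9 at 0.554% and Cyp2f2 at 182%. The part of the hepatocyte signal in the lung values of the 13 members was not tested. Each group holding 1 of the 2 low arrays has a partner array of the other kind.

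**Figure D4:**
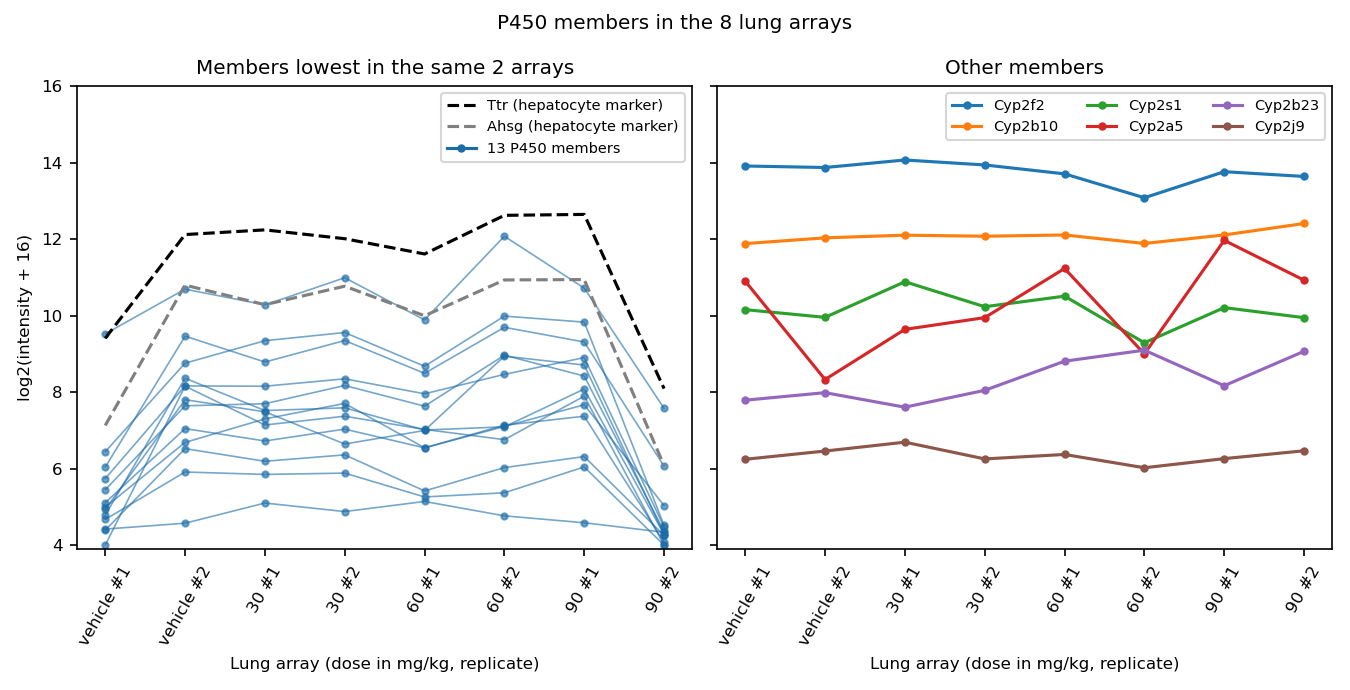
Levels in the 8 lung arrays (x axis, dose in mg/kg and replicate) as log2(intensity + 16). At left the 13 members and the hepatocyte markers Ttr and Ahsg (dashed) are lowest in vehicle replicate 1 and 90 mg/kg replicate 2; at right Cyp2f2, Cyp2b10, Cyp2s1, Cyp2a5, Cyp2b23 and Cyp2j9 do not share those 2 arrays as their lowest.

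No lung member passed an adjusted p of 0.05 in limma at any dose (0% of all genes), and at an unadjusted p under 0.05 there were 1, 4 and 3 of 30 members at 30, 60 and 90 mg/kg, against 5.93%, 8.96% and 11.5% of all genes. By dose trend 0 passed (0.0354% of all genes), and 3 had an unadjusted p under 0.05 (12.9%). Without the 2 arrays the difference at 90 mg/kg for Cyp2e1 was 0.03 instead of -0.96 and for Cyp1a2 0.69 instead of -0.11. The standard error of the difference at 90 mg/kg reached 1.52 in these members, for Cyp2d9.

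Cyp2f2 and Cyp2b10, the lung genes, and Cyp2b23 did not share that array pattern. Cyp2f2 read 17135.4 and 15661.8 at 30 mg/kg, 13327.4 and 8638.1 at 60 mg/kg, and 13858.1 and 12716.9 at 90 mg/kg, a difference of -0.19 ± 0.24 at the highest dose (log2 ± SE; adjusted p = 0.828 in limma). Cyp2b10 read 4394.2 and 5413.0 at 90 mg/kg, above both vehicle arrays, a difference of 0.30 ± 0.20 (adjusted p = 0.643). Cyp2b23 read 205.1 and 237.4 in vehicle, 178.7 and 248.3 at 30 mg/kg, 432.0 and 531.2 at 60 mg/kg, and 271.3 and 520.4 at 90 mg/kg, so that the 4 arrays of the 2 higher doses lay above vehicle. It differed by 0.73 ± 0.32 at 90 mg/kg (adjusted p = 0.439 in limma).

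Cyp2d22 read 1048.9 and 1288.5 in vehicle lung, 1320.1 and 1337.0 at 30 mg/kg, 1023.2 and 1187.2 at 60 mg/kg, and 737.1 and 883.2 at 90 mg/kg. It lay above vehicle at 30 mg/kg and below it at 90 mg/kg, where the difference was -0.52 ± 0.21 (log2 ± SE; adjusted p = 0.394 in limma). Cyp3a13 likewise read 38.7 and 39.9 in vehicle, 84.5 and 100.9 at 30 mg/kg, 37.3 and 54.8 at 60 mg/kg, and 27.7 and 13.7 at 90 mg/kg. Cyp2d40 was the 1 of 30 lung members with all treated arrays above vehicle (3.74% of all genes), at 26.3 and 23.5 in vehicle and 31.6 to 70.7 after treatment, and 0 had all of them below (6.18%).

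Cyp2a5 in lung read 1891.8 and 305.6 in vehicle, 781.4 and 970.4 at 30 mg/kg, 2386.8 and 495.2 at 60 mg/kg, and 3983.1 and 1927.7 at 90 mg/kg. Both arrays at 90 mg/kg were above both vehicle arrays, by 1.83 ± 0.92 (log2 ± SE; adjusted p = 0.513 in limma), but the arrays at 30 and 60 mg/kg overlapped the vehicle range. The airway secretory gene Bpifa1 read 1097.9 and 3.5 in vehicle, -2.2 and 21.5, 904.8 and 95.7, and 1837.5 and 1493.3 in the same order. All 7 club cell markers were higher at 90 mg/kg with 0 called, and their summed intensity was 26632.9 and 24396.8 in vehicle and 32602.8 and 29920.6 at 90 mg/kg. The part of airway content in Cyp2a5 was not tested.

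The response of liver was set against that of lung over 29 members tested in both organs. None differed at an adjusted p of 0.05 in limma (0.01% of 10000 genes), and 4 had an unadjusted p under 0.05 (10.4%). Cyp2b13 had the smallest adjusted p among them, with liver minus lung at -3.87 ± 0.55 (log2 ± SE; adjusted p = 0.0598), where its lung arrays read 15.6 and -1.3 in vehicle and 15.3 and 10.3 at 90 mg/kg. Only 1 of the 2 vehicle lung arrays was above background for this gene.

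In spleen Cyp1b1 rose with the dose, and it was the only member called in any dose comparison as fitted. It read 346.1 and 444.8 in vehicle, 462.3 and 326.4 at 30 mg/kg, 586.6 and 711.0 at 60 mg/kg, and 768.8 and 1105.7 at 90 mg/kg. The arrays at 30 mg/kg overlapped vehicle and the 4 arrays at 60 and 90 mg/kg lay above it. At 90 mg/kg Cyp1b1 was 2.30-fold higher (log2 1.20 ± 0.26, adjusted p = 0.0484 in limma), and it rose by 0.43 ± 0.09 per 30 mg/kg (adjusted p = 0.0335). It was 1 of 12 tested members at 90 mg/kg, where 4.29% of 11023 genes were called, and 1 of 12 by dose trend, where 5.21% were. Higher calls made up 0.154%, 0.753% and 2.1% of all genes at the rising doses, and lower calls 2.99%, 1.15% and 2.19%. At 30 and 60 mg/kg 0 members were called (3.15% and 1.91% of all genes in either direction), and 2 and 5 had an unadjusted p under 0.05 (12.8% and 21.4%).

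The call at 90 mg/kg did not hold when any single spleen array was left out, with adjusted p from 0.0572 to 0.225. It was also lost with a floor of 16 (0.0996), without the detection filter (0.109), with cyclic loess (0.0539), with every probe by itself (0.0526) and without testis-enriched genes (0.0502, a setting chosen after seeing the data), and kept with an offset of 50 (0.0316) and with all 32 arrays in the fit (0.0305). The call by dose trend was lost with the floor (0.0564) and without the detection filter (0.0612), and kept with the other settings named here. It held without 3 of the 8 arrays, each left out by itself, with adjusted p from 0.0289 to 0.153 over the 8. At 90 mg/kg the macrophage markers C1qa and Adgre1 rose, by 1.60 ± 0.24 and 1.17 ± 0.24 (log2 ± SE; adjusted p = 0.0265 and 0.0424 in limma), as 2 of 5 tested, and the summed intensity of that list was 2553.1 and 3085.6 in vehicle and 4317.4 and 4824.4 at 90 mg/kg. All 7 tested endothelial markers were higher with 0 called, with sums of 2633.9 and 2916.9 in vehicle and 2967.8 and 4594.6 at 90 mg/kg. Of 5 erythroid markers 3 fell, among them Klf1, the red cell transcription factor, which fell by 4.12 ± 0.59. The part of these cell types in the Cyp1b1 level was not tested.

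**Figure D5:**
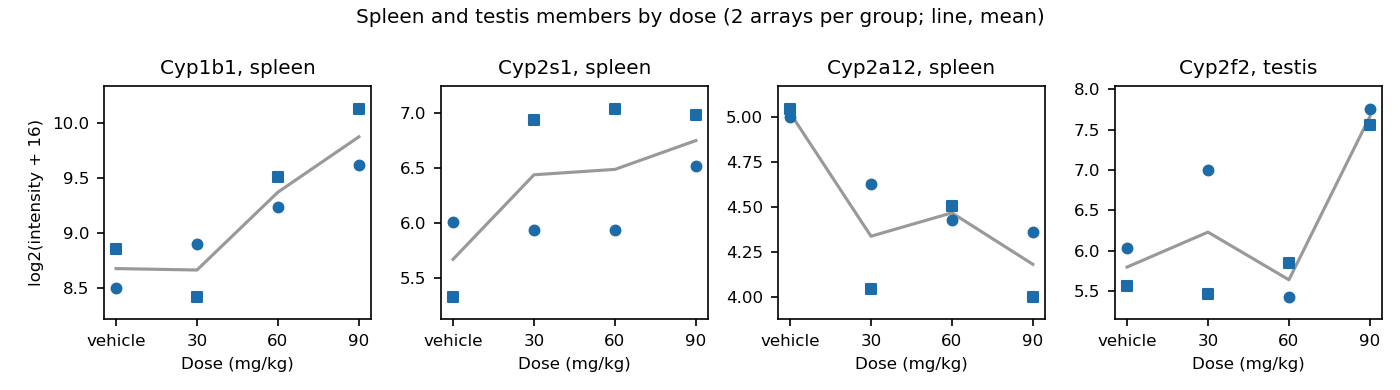
Levels of Cyp1b1, Cyp2s1 and Cyp2a12 in spleen and of Cyp2f2 in testis by dose (x axis, mg/kg), as log2(intensity + 16) on axes that start near each gene's lowest value; circles are replicate 1, squares replicate 2, lines the means of 2 arrays. Cyp1b1 is above vehicle at 60 and 90 mg/kg, and Cyp2f2 in testis at 90 mg/kg.

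Cyp2e1 was above background in all 8 spleen arrays, at 101.4 and 395.0 in vehicle, 565.3 and 316.2 at 30 mg/kg, 449.3 and 1140.4 at 60 mg/kg, and 305.9 and 246.7 at 90 mg/kg, and overlapped vehicle at 30 and 90 mg/kg. Cyp2s1 read 48.4 and 24.3 in vehicle and 75.6 and 110.7 at 90 mg/kg, a difference of 1.08 ± 0.46 (log2 ± SE; adjusted p = 0.193 in limma). Cyp2j9, which oxidises arachidonic acid, read 4.0 and 11.8 in vehicle and between 14.3 and 26.5 in the 6 treated arrays, a difference of 0.74 ± 0.23 at 90 mg/kg (adjusted p = 0.0922). Cyp2d22, Cyp2d40 and Cyp2j9 had all treated arrays above vehicle (14.5% of all genes) and Cyp2a12 all below (9.25%). Cyp2d22 read 104.8 and 102.4 in vehicle, 198.0 and 180.7 at 30 mg/kg, and 111.0 and 116.1 at 90 mg/kg. The dim Cyp2d40 read -1.2 and 4.0 in vehicle, neither above background. It read 5.4 to 14.6 in the treated arrays, some of which were not above background either. It entered the spleen tests through treated arrays alone, so its higher side is partly set by the detection filter. Cyp2a12 read 15.9 and 17.0 in vehicle and between -1.7 and 8.7 after treatment, with -0.84 ± 0.24 at 90 mg/kg (log2 ± SE; adjusted p = 0.0754 in limma), at least 1.35-fold lower. Cyp2a12 was above background in both vehicle arrays and, after treatment, in 1 array at 30 mg/kg only. It thus entered the spleen tests through the vehicle group, which partly sets its lower side. Cyp2d9 read 17.2 and 9.2 in vehicle and was not above background in either array at 90 mg/kg.

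Beside Cyp2a12, which is also a testis-expressed member, the vehicle spleen arrays carried the highest signal of spermatid markers. Prm1, protamine 1 of sperm heads, read 8211.1 and 12420.2 in vehicle spleen and between 366.9 and 5083.8 in the treated arrays, against 17561.8 to 20225.2 in testis. The 8 markers summed to 15715.9 and 29407.9 in vehicle spleen and to 538.1 to 7977.3 after treatment. Their part in the Cyp2a12 values of spleen was not tested. Cyp1b1 read 11.2 to 26.9 in the 8 testis arrays, below its level in every spleen array.

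In testis 0 of 13 tested members were called at 90 mg/kg (0.00932% of 10732 genes), at 30 or 60 mg/kg (0% each) or by dose trend (0%). At an unadjusted p under 0.05 there were 1, 0 and 1 at the rising doses (4.47%, 9.11% and 7.56% of all genes) and 1 by trend (9.94%). The member with an unadjusted p under 0.05 at 90 mg/kg was Cyp2f2, at 49.5 and 31.4 in vehicle, 112.1 and 28.1 at 30 mg/kg, 27.3 and 41.7 at 60 mg/kg, and 200.6 and 172.8 at 90 mg/kg. The 2 arrays at 90 mg/kg lay above all others, with a difference of 1.86 ± 0.42 (log2 ± SE; adjusted p = 0.648 in limma).

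Scgb1a1, the club cell secretoglobin, read -4.5 and -1.2 in vehicle testis, 760.7 and 3.2 at 30 mg/kg, 3.5 and 341.8 at 60 mg/kg, and 60.7 and 68.3 at 90 mg/kg, and its part in the Cyp2f2 values was not tested. The array of 30 mg/kg replicate 1 also gave the highest testis readings of Cyp2e1, at 225.3, and Cyp2c70, at 62.1, together with Apoa1, a hepatocyte apolipoprotein, at 375.3 against -3.3 to 38.3 in the other 7 testis arrays. Cyp2a12 in testis read between 421.2 and 693.8 in the treated arrays, all above vehicle, as in 5.64% of all genes, with 0.43 ± 0.21 at 90 mg/kg (log2 ± SE; adjusted p = 0.650 in limma). Cyp2c55 read 178.3 and 179.2 at 90 mg/kg against 154.0 and 143.5, a difference of 0.24 ± 0.14 (adjusted p = 0.672), while the same gene in liver was not above background in 1 of the 2 arrays at that dose.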

How the data were processed

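RNA of 4 organs was hybridised to Illumina BeadChips, 1 array a sample. The submitters' processing notes name GenomeStudio for the deposited intensity values. Their sorted values nearly coincide over all 32 arrays and 22.0% to 22.5% lie below 0, as quantile-normalized, background-subtracted data would show. A second table was not used because its header repeats sample names (64 columns). Replicate arrays correlated at r = 0.9745 to 0.9912 and 54.8% to 55.6% of probes were above background, taken as 1.645 times the noise SD from values below 0. The number of arrays limits the precision. Values below 0 were set to 0, 16 was added and log2 taken, which understates changes of dim genes. Genes above background in 2 of 8 arrays were fitted per organ with limma 3.58.1 in R 4.3.3, with Benjamini-Hochberg adjustment over all genes tested; the script was tested on simulated data. An "at least" fold sets the dim group no lower than its arrays' lowest signal above background. Of the probes, 23978 had 1 gene symbol, 0 several and 1719 none. Every member may be named; fuller statistics went to the 10 members with the highest vehicle mean per organ, to those called or else the 5 largest differences at 90 mg/kg each way, and to 12 members chosen by name, and genes outside the family came from lists. The members and lists were chosen with earlier results of these data known. The labels give no slide or scan batch. Alternatives changed the offset, floor, filter, normalization, arrays and probes.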

Additional observations from a re-analysis of the deposited data

Results flagged for a closer look

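Some members had both arrays at 90 mg/kg on 1 side of vehicle in 1 organ and on the opposite side in another. Of all genes, 20.7% lay above and 20.8% below vehicle in liver, and 20.8% and 24.1% in lung. In spleen these shares were 32.4% and 21.6%, and in testis 18.7% and 19.3%. The share of all genes on opposite sides in a pair of organs was not counted. For Cyp2b23 liver was at -1.44 and lung at 0.73, a difference of -2.17 (adjusted p of the difference 0.301 in limma), and for Cyp2b10 liver was at -0.70 and lung at 0.30, a difference of -0.997 (adjusted p 0.654 in limma). The following differences, all log2, were not tested. Cyp2b9 in liver minus spleen was -3.30, where its spleen arrays read 0.3 and 3.2 in vehicle and 8.2 and 13.7 at 90 mg/kg. In spleen Cyp2b9 was above background at 90 mg/kg only and entered the spleen tests through that group. Its higher spleen side is therefore partly set by the detection filter. Cyp2c55 in liver minus testis was -2.69. For Cyp2f2, lung minus testis was -2.05. Cyp2b10 in lung minus spleen was 0.67. Cyp2a12 gave 1.05 for liver minus spleen and -1.27 for spleen minus testis. Its lower spleen side is partly set by the detection filter too, since it entered the spleen tests through the vehicle group. For Cyp2d22, lung minus spleen was -0.63 and lung minus testis -0.82.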

How the results depend on the processing

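With all 32 arrays in 1 fit, liver had 2, 5 and 4 of 36 members called at 30, 60 and 90 mg/kg. By liver trend it had 4. The genes called numbered 58, 112 and 396 of 11494, and 484 by trend. The organ's own fit called 0 members in each, and 0 genes at 90 mg/kg. Among the 5 at 60 mg/kg was Cyp2d34, above background in both arrays of that group and in 1 at 30 mg/kg. It entered the liver tests through that group, which partly sets its call. In spleen 1, 1 and 2 of 12 members were called, against 637, 1307 and 1602 of 11023 genes. By spleen trend 2 were called, against 1631 genes. With the offset of 50, the called liver members numbered 1 at 60 mg/kg, 1 at 90 mg/kg and 4 by trend. The genes called there numbered 3, 63 and 140. Liver minus lung gave 1 member with that offset and 1 with a floor of 16, among 6 and 33 genes called. In spleen at 90 mg/kg 0 members were called with the floor, without the detection filter, with cyclic loess, with every probe by itself, and, in an alternative chosen after seeing the data, without testis-enriched genes. Genes called there ranged from 38 without the filter to 1602 with all arrays, and from 22 to 228 with single arrays left out, against 473. The spleen trend called 0 members with the floor or without the filter, where 487 and 381 genes were called. Without testis-enriched genes it called 2, Cyp1b1 and Cyp2b9, among 674 genes. Cyp2b9 was above background in spleen at 90 mg/kg only, so its call is partly set by the detection filter. With single arrays left out, liver at 90 mg/kg gave 0 to 1 members, spleen at 90 mg/kg 0 to 0 and the spleen trend 0 to 2. The replicate numbers did not pair the samples (correlations from -0.234 to 0.405), and with the replicate block spleen gave 0 members at 90 mg/kg and 0 by trend, with 49 and 320 genes, the adjusted p of Cyp1b1 being 0.0784 and 0.05003 in limma and that of Cyp2b13 in liver at 90 mg/kg 0.102. Other comparisons kept their count within 1.5 times.

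Of 1050 values of named members under alternatives, 49 changed sign, none of them called as fitted. With single arrays left out, liver at 90 mg/kg ranged from -0.15 to 0.018 for Cyp1a2, -0.10 to 0.86 for Cyp2d13, -0.071 to 0.323 for Cyp2d22, -0.552 to 0.015 for Cyp2f2, -0.25 to 0.68 for Cyp2r1, -0.22 to 0.62 for Cyp2s1, -0.752 to 0.012 for Cyp2u1, -0.38 to 0.20 for Cyp3a11 and -1.05 to 1.08 for Cyp3a13. With the 2 arrays named below left out together as well, lung ranged from -0.019 to 0.211 for Cyp1a1, -1.76 to 1.53 for Cyp1a2, -0.16 to 0.089 for Cyp2c29, -0.20 to 1.60 for Cyp2c39, -2.29 to 1.51 for Cyp2c50, -1.77 to 1.65 for Cyp2c70, -3.08 to 2.23 for Cyp2d9, -2.53 to 0.61 for Cyp2e1, -0.11 to 0.254 for Cyp2s1 and -2.09 to 2.34 for Cyp3a11. Spleen ranged from -0.14 to 0.15 for Cyp2c70, -0.50 to 1.31 for Cyp2e1 and -0.51 to 0.53 for Cyp2f2. Testis ranged from -0.35 to 0.16 for Cyp1b1, -0.036 to 0.296 for Cyp2d10, -0.13 to 0.27 for Cyp2d26, -0.51 to 0.028 for Cyp2s1 and -0.35 to 0.45 for Cyp2u1. Lung Cyp1a2 was 0.086 with the offset of 50 and 0.39 with the floor. Without vehicle replicate 1 and 90 mg/kg replicate 2 of lung, chosen after seeing the data, Cyp1a2 was 0.69, Cyp2c29 0.012, Cyp2d9 1.07 and Cyp2e1 0.026. Spleen Cyp2f2 was -0.009 with the offset of 50 and -0.15 with the floor, and cyclic loess gave -0.08 for Cyp2f2, -0.077 for Cyp2c70 and -0.059 for Cyp2d22. The cause was not tested. Signal over background limits the dim members.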
